A study of Mus musculus with 12 samples.

Results

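The 10 dual-specificity phosphatases (DUSPs) that act on MAP kinases were followed across SVR tumors given a MEK inhibitor, a VEGFR inhibitor or both. They were taken by gene name from the 54232 genes of the deposited count table, and each name matched 1 row. The set holds 4 nuclear inducible phosphatases (Dusp1, Dusp2, Dusp4 and Dusp5), 3 cytoplasmic phosphatases that prefer ERK (Dusp6, Dusp7 and Dusp9) and 3 directed at JNK and p38 (Dusp8, Dusp10 and Dusp16). All 10 passed the filter on low counts, as did 12897 genes in all. SVR is a mouse angiosarcoma line made from immortalized endothelial cells that carry activated H-ras. The cells were injected under the skin of the flank of athymic nude mice 8 to 12 weeks old, a host without mature T cells, while the labels give the strain as C57BL/6. After 3 to 7 days the mice received daily gavage of vehicle (10% cremaphor, with PEG 400 at 10% and tween at 1%), trametinib at 1 mg/kg, cediranib at 3 mg/kg, or both drugs at those doses. Trametinib inhibits MEK, the kinase that activates ERK, and cediranib inhibits the VEGF receptors. Each of the 4 treatments is represented by 3 tumors, 12 in all, from a single cell line. According to the labels treatment lasted until a tumor ulcerated or exceeded 1 cm, and how long each tumor was treated is not given there. The study describes 2 treatment experiments, of which the other ended at a common time, and the labels do not name the experiment of each tumor, so time under treatment could differ between the groups compared. The methods describe an injection into a flank of each mouse, but the labels do not tie the 3 tumors of a group to animals, and p-values measure the spread between these tumors.

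MAP kinases are switched on by phosphorylation of a threonine and a tyrosine in their activation loop, and a DUSP removes both phosphates. Several of these phosphatases are themselves transcribed in response to ERK signaling, so that their mRNA serves as a readout of the pathway as well as a brake on it. The nuclear class includes immediate early genes, the cytoplasmic class contains the ERK-specific feedback phosphatase Dusp6, and the class directed at JNK and p38 answers mainly to stress signals. SVR cells signal through activated H-ras, upstream of MEK and ERK.

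RNA was taken from whole frozen tumors and enriched with exome probes, so counts reflect probe capture in addition to transcript abundance. The libraries held 9478865 to 11666094 counts. Levels are given as CPM, counts scaled to the same library total, after TMM scaling, and a count of 3, the limit that a count of 0 allows, corresponded to 0.251 to 0.349 CPM in a library. This limit covers counting error only. Tumor cells and host cells are both of mouse origin, so the counts do not separate them, and in whole tumors fewer cells of a type and less RNA per cell cannot be told apart. Endothelial genes were present in the control tumors, with Cdh5 at 45.3 to 120 CPM and Tie1 at 108 to 181 CPM, but the defining marker Emcn did not exceed 0.303 CPM and Pecam1 did not exceed 4.6 CPM. Libraries stood apart in their content of other tissue. The 10 skeletal muscle markers summed to 16854 CPM in control 2 and 23625 CPM in trametinib 2, the muscle-rich libraries, against 6.36 to 1974 CPM in the other 10 tumors. Summed epidermal markers (24 genes) ran from 349 to 535 CPM in the combination, from 34.9 to 45.9 CPM in trametinib and from 27.1 to 276 CPM in the other groups. Most of the trametinib sum was Ppl, at 29.7 to 39.9 CPM against 3.84 to 17.7 CPM in control. In trametinib 11 of the 24 genes had a count of 0 in all 3 tumors. Summed endothelial markers (13 genes) ran from 213 to 455 CPM in control and from 128 to 338 CPM in cediranib, but from 55.9 to 117 CPM in trametinib and from 36.6 to 88.8 CPM in the combination. Values without the muscle-rich libraries, or with a marker score in the fit, are given beside a result of the 10 phosphatases where they ended a call. For other genes single values of these fits are not given.

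Upstream sequence is shown for 4 members that the results turn on: Dusp5 and Dusp6, which fell under trametinib, Dusp1, which gave no call, and Dusp2, the lowest of the 10 per kilobase in control. Windows of 300 bases (250 before and 50 after the start) were given by RefSeq on GRCm38.p6 for 8 of the 10 members, all but Dusp4 and Dusp9. They were searched on both strands for the cAMP response element (CRE) TGACGTCA, the AP-1 site TGANTCA, the ETS-type site CCGGAA, the EGR-type site GCGGGGGCG and the CArG box, which serum response factor binds. Shorter or variant forms of these sites were not searched. Bases past the start of the gene in the deposited table are left out, and capitals mark a matched motif.
Dusp5 (chr19:53528895-53529108, + strand): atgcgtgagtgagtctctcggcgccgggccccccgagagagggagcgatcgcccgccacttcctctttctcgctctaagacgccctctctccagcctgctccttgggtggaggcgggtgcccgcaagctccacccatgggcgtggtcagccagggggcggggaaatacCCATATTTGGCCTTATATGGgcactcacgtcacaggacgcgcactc
Dusp1 (chr17:26508520-26508722, - strand): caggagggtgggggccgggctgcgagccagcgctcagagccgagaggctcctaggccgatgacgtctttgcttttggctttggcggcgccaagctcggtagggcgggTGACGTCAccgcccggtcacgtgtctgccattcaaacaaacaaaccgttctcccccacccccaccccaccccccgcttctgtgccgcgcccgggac
Dusp6 (chr10:99262981-99263230, + strand): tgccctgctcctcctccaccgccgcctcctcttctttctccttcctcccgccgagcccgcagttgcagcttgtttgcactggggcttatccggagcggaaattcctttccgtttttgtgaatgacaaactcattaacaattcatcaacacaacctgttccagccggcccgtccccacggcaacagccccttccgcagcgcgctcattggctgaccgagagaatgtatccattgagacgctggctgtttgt
Dusp2 (chr2:127335909-127336158, + strand): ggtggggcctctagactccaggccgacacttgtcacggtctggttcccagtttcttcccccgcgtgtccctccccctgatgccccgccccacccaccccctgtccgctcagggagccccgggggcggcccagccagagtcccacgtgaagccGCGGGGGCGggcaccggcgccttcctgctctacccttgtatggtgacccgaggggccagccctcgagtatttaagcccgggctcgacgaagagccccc
The Dusp5 stretch holds 2 adjacent CArG boxes that begin at -82 and -72 relative to the RefSeq start, and 1.63% of the 32851 windows of the table hold such a box. The Dusp1 stretch holds a CRE at -143 (1.79% of windows), and the Dusp2 stretch an EGR-type site at -98 (2.91% of windows). In the Dusp8 window 2 CREs were found, at -107 and -63. The windows of Dusp6, Dusp7, Dusp10 and Dusp16 held none of the 5 motifs, and no member's window held the AP-1 letters (7.81% of windows) or the letters CCGGAA (14.9% of windows). The shorter letters GGAA do occur in the Dusp6 stretch. A match describes the letters in this window and not a bound site.

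In untreated tumors the 10 phosphatases spanned a wide range of transcript level. Because longer transcripts collect more reads, levels were compared between genes as CPM per kilobase, with the transcript length of the deposited table. How much of each length the exome probes cover is not given, so the order between genes is approximate. Dusp1 was highest at 33.4 ± 13.0 CPM per kilobase (SD, n = 3), with a table length of 2697 bases where the merged exons of GENCODE M21 cover 3311. With that longer length its mean would not rank above Dusp5. By the table length Dusp1 was followed by Dusp5 at 27.8 ± 10.7 and Dusp7 at 25.6 ± 2.76 CPM per kilobase, and the values of these 3 genes overlapped. Dusp10 at 15 ± 4.25, Dusp6 at 14.2 ± 1.5 and Dusp4 at 11.2 ± 3.89 CPM per kilobase also overlapped each other. All 3 tumors of that middle group lay below all Dusp7 values. Dusp16 stood alone at 3.15 ± 0.393 CPM per kilobase. Dusp9, Dusp8 and Dusp2 came last, with 1.08 ± 0.576, 0.847 ± 0.395 and 0.754 ± 0.186 CPM per kilobase and overlapping ranges. The class names thus did not order the levels, since the nuclear class held both the highest and the lowest member.

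**Figure D1:**
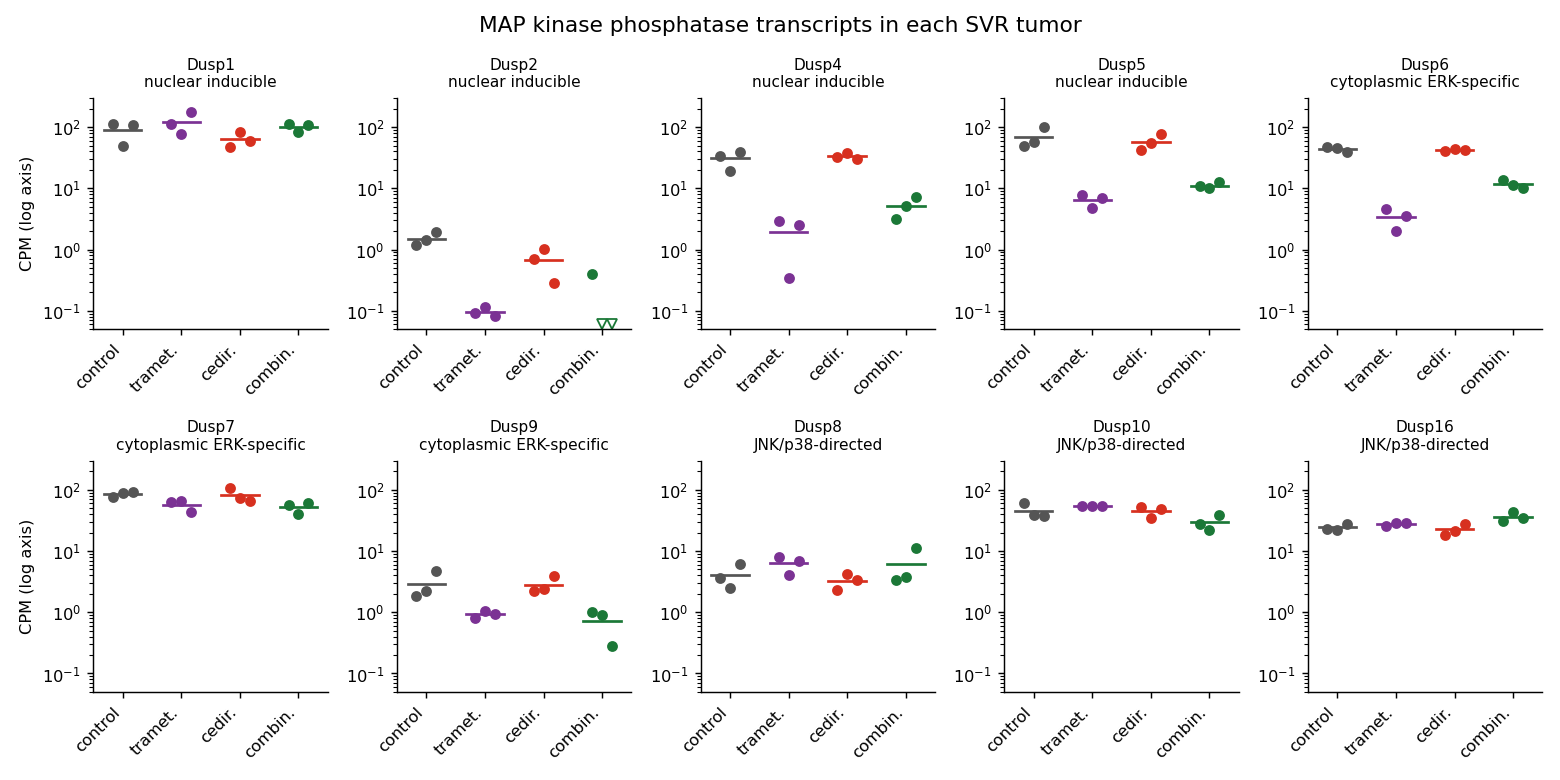
Level of each of the 10 phosphatases in the 12 tumors, as CPM on a log axis, with 1 point per tumor and a bar at the group mean. Open triangles at the bottom mark the 2 combination tumors in which Dusp2 had a count of 0, and no mean bar is drawn there. Dusp4, Dusp5 and Dusp6 were far lower in the trametinib and combination tumors than in control and cediranib tumors, while Dusp1, Dusp8, Dusp10 and Dusp16 stayed within overlapping or neighboring ranges.

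Trametinib treatment was compared with vehicle to ask which of these phosphatases depend on MEK activity in the tumor. Dusp4, Dusp5 and Dusp6 fell to 6.24%, 9.52% and 7.60% of the control mean. Dusp2, already scarce, also passed the test. A gene was called at a false discovery rate (FDR, Benjamini-Hochberg over all genes tested) of 0.05 with a log2 fold change of 1.5 or more in either direction, from the edgeR quasi-likelihood fit to all 12 libraries. By this rule 4 of the 10 members were lower and 0 were higher, where 1.43% of all genes tested were called lower and 0.977% higher. By class, 3 of 4 nuclear inducible phosphatases, 1 of 3 cytoplasmic ones and 0 of 3 directed at JNK and p38 were called. The median log2 fold changes of the classes were -3.6, -1.66 and 0.26, beside 0.0057 over all genes tested.

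Dusp6 (chr10:99263231-99267488), the cytoplasmic phosphatase specific for ERK and a standard readout of ERK output, had 47.7, 46.4 and 39.0 CPM in the control tumors. It had 4.54, 1.98 and 3.6 CPM in the trametinib tumors. Every treated tumor lay below every control, with no value between 4.54 and 39.0 CPM, and Dusp6 had the smallest coefficient of variation of the 10 members in control (10.6%). The log2 fold change was -3.70 (SE 0.24, FDR 1.59e-05). Dusp5 (chr19:53529109-53542431), a nuclear phosphatase that binds and inactivates ERK alone, had 50.1, 57.0 and 99.0 CPM in control and 7.90, 4.77 and 6.95 CPM under trametinib. The groups did not overlap, although control 3 was 1.98 times control 1. The log2 fold change of Dusp5 was -3.38 (SE 0.31, FDR 0.000101). Dusp4 (chr8:34807297-34819894), a nuclear phosphatase of ERK and JNK, had 34.2, 18.9 and 39.3 CPM in control and 2.91, 0.349 and 2.51 CPM under trametinib. The lowest tumor in both groups was the muscle-rich library, control 2 and trametinib 2. The log2 fold change of Dusp4 was -3.95 (SE 0.51, FDR 0.000986), and without these 2 libraries it was -3.76 (FDR 0.000835). Dusp4, Dusp5 and Dusp6 were called under all 21 alternative settings of this comparison, including fits with the epidermal or the endothelial score (mean log2 CPM of the markers) as a covariate. Neither score overlapped between trametinib (-1.40 to -1.31 epidermal and 1.73 to 2.21 endothelial) and control (-0.779 to 1.03 and 2.96 to 4.24), so treatment and cell content cannot be told apart from these groups alone.

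Dusp2 (chr2:127336159-127338376), a nuclear phosphatase best known from activated lymphocytes and macrophages, was near the counting limit. The control tumors had 14, 14 and 19 counts and each trametinib tumor had 1 count. The ratio of the summed counts, scaled for depth, was 0.0637 (95% counting interval 0.0127 to 0.198). The fitted log2 fold change of -3.82 (SE 0.91, FDR 0.0298) depends on the prior count at such levels and is no bound. The call was lost on leaving out any of the 6 control and trametinib libraries or cediranib 1, with the lowest FDR of these at 0.0502 and the highest at 0.117. It was also lost without the 2 muscle-rich libraries (FDR 0.144) and with the endothelial score as a covariate (FDR 0.428). Lymphocyte markers did not exceed 1.54 CPM in sum in any tumor, and summed macrophage markers were 395 to 695 CPM in control and 307 to 440 CPM under trametinib. The part of those cells in the Dusp2 counts was not tested.

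The other 2 cytoplasmic members gave smaller differences. Dusp9 (chrX:73639419-73643514), an ERK-preferring phosphatase of placenta and stem cells, had 1.87, 2.23 and 4.75 CPM in control and 0.817, 1.05 and 0.921 CPM under trametinib. The groups did not overlap, but the log2 fold change of -1.66 (SE 0.49) had an FDR of 0.0696. It was called in 3 of 21 alternatives, with no filter on low counts (FDR 0.0195), by DESeq2 (FDR 0.0406) and without combination 3 (FDR 0.0445). Dusp7 (chr9:106368632-106375721), a close relative of Dusp6, had 75.2, 89.9 and 92.3 CPM in control and 62.5, 64.5 and 43.7 CPM under trametinib. Those groups did not overlap either, with a log2 fold change of -0.59 (SE 0.21, FDR 0.135). In all, 6 of the 10 members had the 3 trametinib values below the 3 control values, which 12.9% of all genes tested did.

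Dusp1 (chr17:26505590-26508519), the immediate early phosphatase that acts mainly on p38 and JNK, was the nuclear member that gave no call. It had 114, 50 and 107 CPM in control and 112, 76.6 and 180 CPM under trametinib, and the groups overlapped. Its log2 fold change was 0.45 (SE 0.34, 95% interval -0.29 to 1.19, FDR 0.517). The interval stays above the fold changes of Dusp4, Dusp5 and Dusp6 and reaches below 0. The 3 phosphatases directed at JNK and p38 were also not called. Dusp8 (chr7:142079490-142095843) had 2.53 to 6.26 CPM in control and 4.07 to 7.99 CPM under trametinib, a log2 fold change of 0.62 (95% interval -0.43 to 1.67). For Dusp10 (chr1:184013302-184075636) the log2 fold change was 0.26 (95% interval -0.25 to 0.76), and the trametinib tumors, at 53.5 to 54.9 CPM, were the most uniform of any member and group. For Dusp16 (chr6:134715468-134792475) it was 0.18 (95% interval -0.21 to 0.57), with 22.4 to 28.1 CPM in control and 25.5 to 29.1 CPM under trametinib. Genes on the opposite strand that overlap Dusp5, Dusp8, Dusp10 or Dusp16 had at most 2 counts in all libraries together.

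Cediranib treatment was compared with vehicle to ask whether VEGFR inhibition alone moved the same genes, and no member was called. Dusp6 had 41.4, 43.6 and 43.1 CPM under cediranib against 39.0 to 47.7 CPM in control, a log2 fold change of -0.06 (95% interval -0.51 to 0.40). Dusp4 had 32.9, 37.7 and 29.8 CPM, all within the control range (log2 fold change 0.12, 95% interval -0.80 to 1.04). Dusp5 had 41.9, 54.4 and 77.6 CPM, with a log2 fold change of -0.24 (95% interval -0.85 to 0.36). These intervals leave out a fall of the size seen with trametinib. Dusp2 was the only member whose values did not overlap, with 0.699, 1.04 and 0.287 CPM against 1.19 to 1.92 CPM, and the 3 values lay below those of the other group in 3.45% of all genes tested. Its 21 counts against 47 gave a ratio of 0.454 (95% counting interval 0.258 to 0.774), and the fit gave a log2 fold change of -1.14 (SE 0.71, FDR 0.999). The 10 members had FDRs of at least 0.999. None of the 12897 genes tested was called in this comparison by the main edgeR fit (0%), while 557 genes (4.32%) had an unadjusted p under 0.05. DESeq2 called 6, and edgeR with no filter on low counts called 324 of 29102 genes.

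The combination was compared with vehicle in the same way, and 5 of the 10 phosphatases were lower. Dusp4, Dusp5 and Dusp6 stood at 16.8%, 16.2% and 26.7% of the control mean. By the same rule 0 members were higher, and 1.71% of all genes tested were called lower and 1.91% higher. The 5 were 3 of 4 nuclear inducible members (Dusp2, Dusp4 and Dusp5) and 2 of 3 cytoplasmic ones (Dusp6 and Dusp9), with 0 of 3 directed at JNK and p38. Median log2 fold changes of the classes were -2.59, -1.91 and 0.56, beside 0.0016 over all genes tested.

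Dusp6 had 13.9, 11.3 and 10.2 CPM in the combination tumors, a log2 fold change of -1.91 against control (SE 0.22, FDR 0.000747). Dusp5 had 10.9, 9.99 and 12.5 CPM (log2 fold change -2.62, SE 0.30, FDR 0.000737). Dusp4 had 3.13, 5.17 and 7.24 CPM (log2 fold change -2.57, SE 0.46, FDR 0.00744). For each of these genes every combination tumor lay below every control. Dusp9 had 1.01, 0.908 and 0.278 CPM, and 23 counts against 91 gave a ratio of 0.251 (95% counting interval 0.152 to 0.401). Its log2 fold change of -1.99 (SE 0.50, FDR 0.0292) was not called without control 3 (FDR 0.128), combination 1 (FDR 0.0508), combination 2 (FDR 0.0634) or combination 3 (FDR 0.083). Dusp2 had 4 counts in combination 1 and 0 in the other 2 tumors, where a count of 0 allows up to 0.272 and 0.278 CPM. The ratio of 4 counts to 47 was 0.0846 (95% counting interval 0.0221 to 0.231). The fitted log2 fold change of Dusp2 was -3.44 (SE 0.88, FDR 0.0304), and the call was lost without control 2 (FDR 0.0754), control 3 (FDR 0.108), combination 2 (FDR 0.0981) or combination 3 (FDR 0.0967).

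Calls of the combination against control depended on the marker scores. The mean log2 CPM of 20 epidermal markers was 2.83 to 3.39 in the combination and -0.779 to 1.03 in control, and that of 11 endothelial markers 0.975 to 1.90 against 2.96 to 4.24, so neither score overlapped between these groups. With the epidermal score as a covariate 1 of the 5 members, Dusp6, was still called (log2 fold change -1.91, FDR 0.0431). The log2 fold changes of the others in that fit were -2.48 for Dusp5 (SE 0.51, FDR 0.0598), -2.52 for Dusp4 (SE 0.71, FDR 0.159), -1.90 for Dusp9 (FDR 0.436) and -2.27 for Dusp2 (FDR 0.543), where the SEs of Dusp5 and Dusp4 had been 0.30 and 0.46. With the endothelial score 0 were called, at log2 fold changes of -2.09 for Dusp6 (SE 0.40, FDR 0.0769), -2.22 for Dusp5 (SE 0.54, FDR 0.141), -2.22 for Dusp4 (SE 0.80, FDR 0.374), -1.78 for Dusp9 (FDR 0.601) and -1.66 for Dusp2 (FDR 0.772). Without the 2 muscle-rich libraries Dusp4, Dusp5 and Dusp6 were called, 3 members in all, while Dusp9 had -2.16 (FDR 0.0608) and Dusp2 -3.48 (FDR 0.0879). The loss was not particular to these members. Over all 12897 genes tested, 466 were called in the main fit, 57 with the epidermal score and 14 with the endothelial score. With groups this far apart in both scores, treatment and cell content cannot be told apart in this comparison.

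The members without a call included Dusp7, with 56.2, 40.8 and 61.7 CPM, all below control, and a log2 fold change of -0.70 (SE 0.21, FDR 0.0592). Dusp16, a phosphatase of JNK and p38, had 31.4, 43.2 and 34.2 CPM, all above the control range of 22.4 to 28.1 CPM (log2 fold change 0.56, SE 0.18, FDR 0.066). Of the 10 members 6 lay wholly below control and Dusp16 wholly above, where 15.7% and 15.6% of all genes tested did. Dusp1 had 112, 84.7 and 107 CPM, within the control range (log2 fold change 0.17, 95% interval -0.57 to 0.91). Dusp10 had 27.4, 22.3 and 38.5 CPM (log2 fold change -0.63, FDR 0.107) and overlapped control. Dusp8 spread from 3.33 to 11.1 CPM, wider than any other group of that gene.

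**Figure D2:**
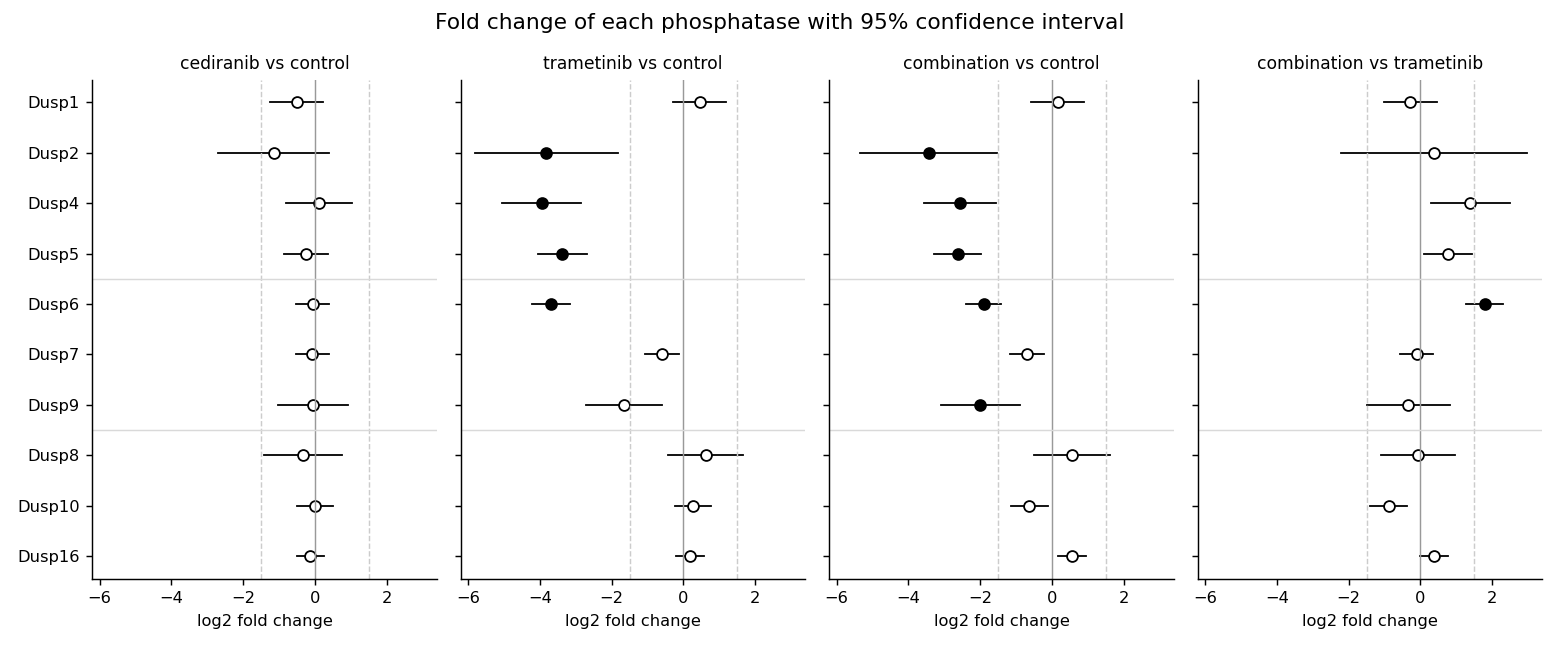
Log2 fold change of each phosphatase in 4 comparisons from the edgeR quasi-likelihood fit, with bars for the 95% confidence interval. Filled points are called at an FDR of 0.05 and a log2 fold change of 1.5 or more in either direction (dashed lines), and horizontal lines separate the nuclear, cytoplasmic and JNK/p38-directed classes. Trametinib has 4 filled points on the left, cediranib 0, the combination 5 on the left, and the combination against trametinib 1 on the right, Dusp6 at 1.79.

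The combination was next set against trametinib, which asks whether adding the VEGFR inhibitor changed what MEK inhibition did. Dusp6 was higher in the combination, with 10.2 to 13.9 CPM against 1.98 to 4.54 CPM, and its log2 fold change was 1.79 (SE 0.24, FDR 0.0196). It was the only member called, 1 of 10, where 0.535% of all genes tested were called higher and 0.14% lower. Dusp4 and Dusp5 also had all 3 combination values above the 3 trametinib values, but with log2 fold changes of 1.38 (SE 0.50, FDR 0.18) and 0.76 (SE 0.30, FDR 0.221) they were not called. Dusp16 lay wholly above as well (log2 fold change 0.38, FDR 0.283). Dusp10 lay wholly below, with 22.3 to 38.5 CPM against 53.5 to 54.9 CPM and a log2 fold change of -0.89 (SE 0.23, FDR 0.0813). Values wholly above were found for 12.4% of all genes tested and values wholly below for 11.8%. Dusp1, Dusp2, Dusp7, Dusp8 and Dusp9 overlapped. The call of Dusp6 was lost without trametinib 3 (FDR 0.0663), without combination 2 (FDR 0.0646) and with the epidermal score as a covariate (log2 fold change 1.78, FDR 0.645). The epidermal scores of these groups, -1.40 to -1.31 against 2.83 to 3.39, are far apart. With the endothelial score as a covariate the call remained (log2 fold change 1.74, FDR 0.0368), and it remained without the 2 muscle-rich libraries (log2 fold change 1.54, FDR 0.0499).

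Whether cediranib acted differently with and without trametinib was tested as an interaction. No member and none of the genes tested (0%) was called by the main edgeR fit, with 909 genes (7.05%) at an unadjusted p under 0.05. Dusp6 had the smallest p of the members, with an interaction of 1.85 on the log2 scale (SE 0.32, unadjusted p = 8.12e-05, FDR 0.185). DESeq2 called it (FDR 1.18e-05), as did the edgeR fit with no filter on low counts (FDR 1.08e-06). The next smallest p-values belonged to Dusp10, at -0.89 (FDR 0.682), and Dusp5, at 1.00 (FDR 0.684).

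The combination was also set against cediranib, to show what trametinib did on a background of VEGFR inhibition. Dusp4, Dusp5, Dusp6 and Dusp9 were lower, 4 of 10 members, where 1.16% of all genes tested were called lower. Their log2 fold changes were -2.68 (FDR 0.00665) for Dusp4, -2.38 (FDR 0.00142) for Dusp5, -1.85 (FDR 0.00117) for Dusp6 and -1.94 (FDR 0.0382) for Dusp9. Dusp5 and Dusp6 were called in all 21 alternatives, Dusp4 in 20 and Dusp9 in 9. With the endothelial score as a covariate 2 of the 4 were called, Dusp5 and Dusp6, while Dusp4 had a log2 fold change of -2.44 (FDR 0.0952) and Dusp9 one of -1.81 (FDR 0.269). Over all genes tested, 316 were called in the main fit and 149 with that score. Dusp9 was also not called with the epidermal score (-1.90, FDR 0.09) or without the 2 muscle-rich libraries (-1.94, FDR 0.0597). The Dusp9 call was lost in 7 of the 12 fits without 1 library, which left out trametinib 1, any cediranib tumor or any combination tumor, with FDRs from 0.0542 to 0.116. Dusp16 was the only member higher at an FDR of 0.05 without the minimum fold change (log2 fold change 0.68, SE 0.18, FDR 0.039), which 3.90% of all genes tested were. With the epidermal score as a covariate Dusp16 had an FDR of 0.134. Over the 21 alternatives its FDR ran from 0.00684 to 0.402. Neither rule was passed by Dusp2 (log2 fold change -2.295, FDR 0.158), Dusp7 (-0.63, FDR 0.0993), Dusp10 (-0.63, FDR 0.125), Dusp1 (0.67, FDR 0.266) or Dusp8 (0.89, FDR 0.307). The epidermal score ran from -0.634 to 2.74 in cediranib, below the 2.83 to 3.39 of the combination. This comparison, that with control and that with trametinib share the combination tumors and are not independent of each other.

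Spread within groups differed between members. The coefficient of variation of Dusp6 was 2.74% under cediranib and 10.6% in control, but 38.4% under trametinib, where it rests on 17 to 50 counts. Dusp4 reached 71.6% under trametinib, with 3 counts in trametinib 2 and 30 and 32 in the other tumors. Dusp1 varied most among the abundant members in control (38.8%) and trametinib (42.9%). Dusp10 and Dusp16, at 1.35% and 7.23%, were the steadiest under trametinib.

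The make-up of the phosphatase mRNA in a tumor was described by each member's share of the sum over all 10, with no test. The shares use the table lengths and carry the same limit as the levels per kilobase. Summed over the 10 genes, transcript levels were 133 ± 23.3 CPM per kilobase in control (SD, n = 3), 117 ± 3.89 with cediranib, 90.1 ± 17.7 with trametinib and 79.3 ± 11 with the combination. The lowest control total (108) and the highest trametinib total (108) met, whereas all combination totals, at 67.1 to 88.4, lay below control. Dusp1 made up 24.5% ± 6.83 of the sum in control and 20.0% ± 5.20 with cediranib, but 49.1% ± 11.6 with trametinib and 47.3% ± 2.77 with the combination. Its shares did not overlap between trametinib and control, although its own level gave no call. For Dusp5 the share was 20.7% ± 5.68 in control, 2.94% ± 0.558 under trametinib and 5.70% ± 0.338 in combination tumors. In the same order Dusp6 had 11% ± 2.83, 1.18% ± 0.395 and 4.83% ± 0.987, and Dusp4 had 8.27% ± 1.64, 0.737% ± 0.516 and 2.40% ± 0.880. The mean shares of these 3 genes were thus lower than in control with both treatments. Dusp7 had shares of 19.7% ± 4.55 in control, 19.8% ± 7.23 with trametinib and 19.7% ± 1.43 with the combination. The 3 members directed at JNK and p38 had 14.4% ± 3.05 in control, 25.8% ± 4.51 with trametinib and 19.6% ± 2.7 with the combination. Their summed level was 19.0 ± 4.02, 22.7 ± 0.515 and 15.6 ± 3.26 CPM per kilobase in those groups, and the ranges of control (16.2 to 23.6) and trametinib (22.2 to 23.2) overlapped. The 3 cytoplasmic members summed to 38.3 to 42.4 CPM per kilobase in control, 14.5 to 20.4 under trametinib and 16.1 to 21.8 in combination tumors.

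**Figure D3:**
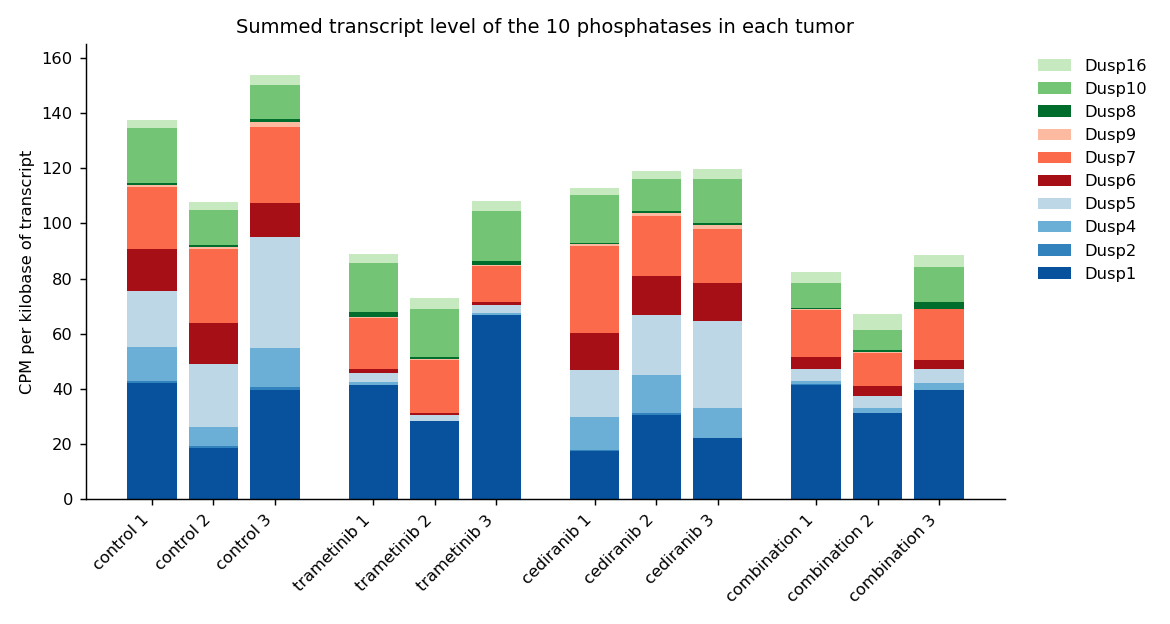
Summed transcript level of the 10 phosphatases in each tumor, as CPM per kilobase on a linear axis from 0, with blues for the nuclear inducible class, reds for the cytoplasmic class and greens for the JNK/p38-directed class. The Dusp1 segment at the base accounts for 38.9% to 61.7% of the bar in trametinib tumors against 17.2% to 30.7% in control, while the Dusp4, Dusp5 and Dusp6 segments nearly vanish.

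The genes whose pattern over the 12 tumors was most like that of Dusp6 were found by the root mean square difference in log2 CPM, after each gene was centred on its own mean. Among 12887 other genes tested, for which the median difference was 1.59, the closest were Etv5 (0.267), Prkg2 (0.488), Acap1 (0.501), Spry4 (0.522) and Itga6 (0.526). Etv5 is an ETS transcription factor and Spry4 an inhibitor of receptor tyrosine kinase signaling, and both are known targets of ERK. Etv5 had means of 72.7, 5.66, 60.2 and 17 CPM in control, trametinib, cediranib and combination. Among the other phosphatases Dusp5 was nearest to Dusp6 (difference 0.521, rank 4 of all genes tested), then Dusp4 (0.651, rank 17), Dusp2 (0.987, rank 132) and Dusp9 (1.12, rank 257). Dusp7, although of the same class as Dusp6, followed at 1.34 (rank 984). Dusp10, Dusp16, Dusp1 and Dusp8 were at 1.66 to 1.95, beyond the median of all genes. This is a description of likeness over 12 tumors in 4 treatment groups and carries no test.

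Other parts of the pathway were read from lists chosen with earlier results of these data known. Of 26 genes transcribed on ERK signaling, 24 were tested, and 11 were lower and 0 higher with trametinib, with a list median log2 fold change of -2.07. Over all genes tested 1.43% were called lower and 0.977% higher. Egr1, an immediate early transcription factor, went from 87.2 ± 0.975 CPM in control (SD, n = 3) to a mean of 3.85 CPM (log2 fold change -4.49, SE 0.23, FDR 2.15e-06). Ccnd1, which encodes cyclin D1, went from 98.9 ± 12.9 to a mean of 20.2 CPM (log2 fold change -2.29, SE 0.16, FDR 1.83e-05), and Etv5 had a log2 fold change of -3.67 (SE 0.28, FDR 3.35e-05). With the combination 9 of the 24 were lower and 0 higher against control, where 1.71% of all genes tested were called lower and 1.91% higher. With the endothelial score as a covariate only 6 genes in all were called lower in that comparison, so not all of the 9 calls remained. Against trametinib alone 1 was higher in the combination, Etv5, with a log2 fold change of 1.58 (SE 0.27, FDR 0.0269), beside 0.535% of all genes tested. The Etv5 call was lost with the epidermal score as a covariate and without combination 2, where 0 genes were called in this comparison.

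Of 10 MAP kinase genes listed, 9 were tested and none was called under trametinib. Over all genes tested 1.43% were called lower and 0.977% higher. The smallest p-values of the MAP kinase genes were those of Mapk12 (log2 fold change -1.44, FDR 0.0964), Mapk7 (0.34, FDR 0.216) and Mapk13 (FDR 0.366). The means of Mapk13 in both groups were under the counting limit, so that no fold is given. Mapk13, a p38 kinase known from epithelia, was called higher in the combination against control (FDR 0.0186), with means of 3.80 and 0.227 CPM, and against trametinib (FDR 0.0322), where its mean was 0.0303 CPM. The epidermal score, given above, was higher in the same tumors. With that score as a covariate, and without combination 2, 0 genes were called in the combination against trametinib, so this Mapk13 call was lost. The cause of the Mapk13 values was not tested.

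Of the 7 MAP2 kinases, which activate the MAP kinases, 1 was called lower under trametinib, beside 1.43% of all genes tested. Map2k6, an activator of p38, went from 27.5 ± 7.54 CPM to a mean of 7.34 CPM (log2 fold change -1.91, SE 0.26, FDR 0.00139). Map2k3, which also activates p38, had a log2 fold change of -1.32 (SE 0.17, FDR 0.000953), past the FDR but under the minimum fold change. Map2k2, the gene of a kinase that trametinib binds, had 0.29 (SE 0.13, FDR 0.243).

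Outside the DUSP family, MAP kinases are also dephosphorylated by tyrosine phosphatases with a kinase interaction motif. Both of the tested genes of this kind were lower under trametinib, of 3 listed. Over all genes tested 1.43% were called lower under trametinib and 0.977% higher. Ptpn7 went from 64.7 ± 23.4 CPM to a mean of 6.54 CPM (log2 fold change -3.33, SE 0.51, FDR 0.00272) and was also lower with the combination (-2.61, FDR 0.00841). Ptpn5 had 3.06 ± 1.43 CPM in control and a mean of 0.770 CPM under trametinib (-1.98, SE 0.52, FDR 0.0458), but 3.18 CPM with the combination (0.06, FDR 0.956). The difference of Ptpn5 between combination and trametinib, 2.03, had an FDR of 0.0795. The atypical DUSPs, which lack the MAP kinase binding domain, gave 0 calls among 9 tested of 15 listed. Dusp22 had the smallest p of these (log2 fold change 1.41, SE 0.33, FDR 0.0288), under the minimum fold change, with 1.85 ± 0.402 CPM in control and a mean of 4.93 CPM under trametinib. Dusp27 (1.69, FDR 0.206) and Styx (-0.42, FDR 0.305) followed. The list median log2 fold change was 0.31 for the atypical DUSPs and -1.13 for the 10 MAP kinase phosphatases.

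The levels of Dusp4, Dusp5 and Dusp6 were last set beside the marker scores, because both tumor cells and host vessels express endothelial genes. Endothelial scores were 1.73 to 2.21 in trametinib, 0.975 to 1.90 in the combination, 2.30 to 3.67 in cediranib and 2.96 to 4.24 in control. Cediranib 3 had a score of 2.30, close to the 2.21 of trametinib 2. Its Dusp6 level was 43.1 CPM against 1.98 CPM in that tumor, and its Dusp5 level was 77.6 against 4.77 CPM. Trametinib 2 is a muscle-rich library and had the lowest Dusp4, Dusp5 and Dusp6 of its group. Dusp6 was at 4.54 CPM in trametinib 1 and 3.6 CPM in trametinib 3. With the endothelial score as a covariate the log2 fold changes under trametinib were -3.83 (FDR 0.00071) for Dusp6, -3.06 (FDR 0.00733) for Dusp5 and -3.67 (FDR 0.0231) for Dusp4, and these 3 calls remained. The scores of trametinib and control did not overlap, so this fit cannot separate treatment from cell content. The cause was not tested.

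**Figure D4:**
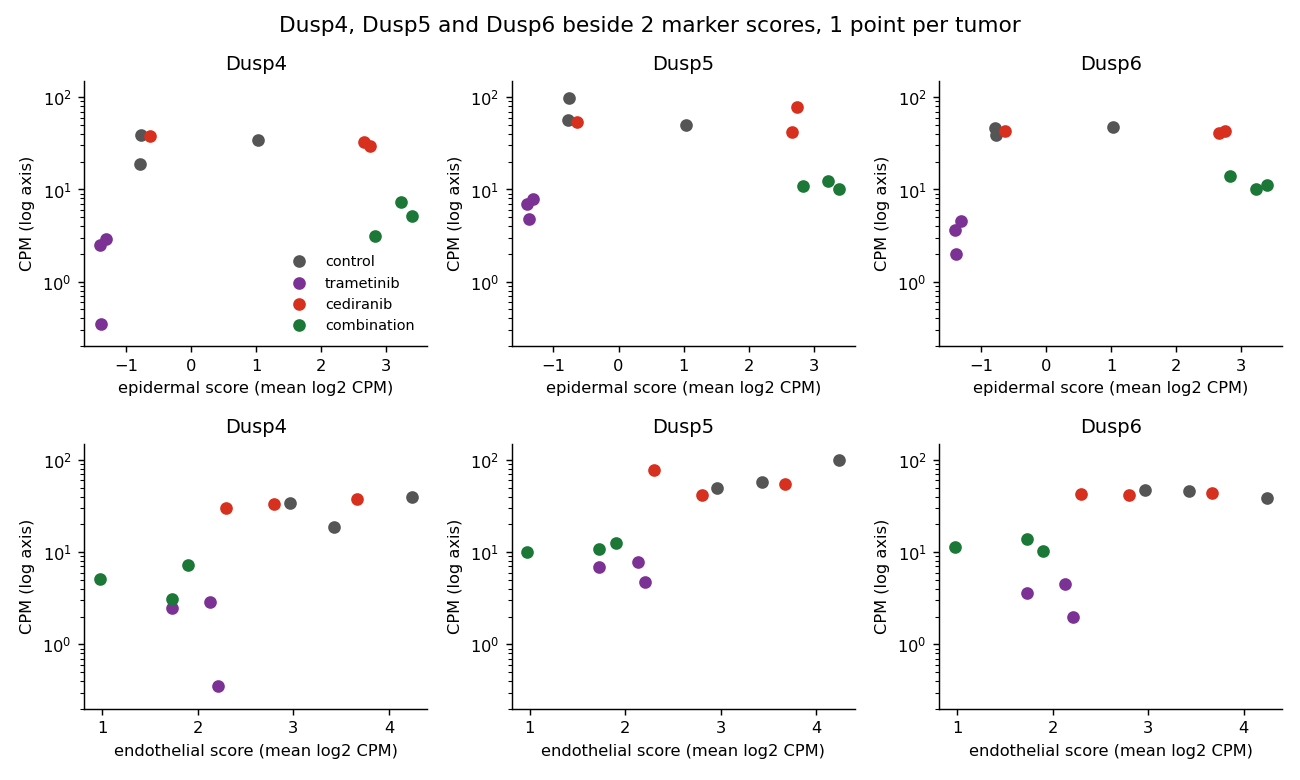
Dusp4, Dusp5 and Dusp6 levels (CPM, log axis) against the epidermal score and the endothelial score (mean log2 CPM of 20 and 11 markers), with 1 point per tumor. In the lower row cediranib and trametinib tumors come close at scores of 2.21 (trametinib 2) and 2.30 (cediranib 3), where Dusp6 was 1.98 and 43.1 CPM. Trametinib 2 is a muscle-rich library. In the upper row combination 1 (score 2.83) lies beside cediranib 3 (score 2.74), with Dusp6 at 13.9 and 43.1 CPM.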

How the data were processed

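RNA sequencing counts of 12 SVR xenograft tumors, 3 per treatment, were used, with groups taken from the sample labels. Per the labels and the study's methods, the authors called bases with bcl2fastq 1.8.4, aligned reads to GRCm38 with STAR 2.7.1a and made gene counts with featureCounts 1.6.0. The deposited values are raw counts. Those sources name neither an annotation release nor settings for strand and multimapping reads. Genes passing filterByExpr (minimum count 10, minimum total 15) entered 1 quasi-likelihood fit over all 12 libraries with TMM factors (edgeR 4.0.16, R 4.3.3), and p-values were adjusted after Benjamini-Hochberg over all 12897 genes. The SE is the absolute log2 fold change over the square root of F, tests were two-sided, and scores used log2 CPM with a prior count of 2. Alternatives comprised other scalings, no filter, DESeq2 1.42.0, the compared groups alone, a replicate block, an epidermal score, leaving out each library and the FDR alone. The endothelial score and the removal of both muscle-rich libraries were added after the marker sums were seen. All 10 members were tested in each comparison, and values of members without a call are given only in part. Of each other pathway list the 3 genes with the smallest p under trametinib are named, and other genes named were chosen after their values were seen. The members and lists were chosen with earlier results of these data known. Counting ratios carry exact 95% intervals that cover counting error only.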

Additional observations from a re-analysis of the deposited data

How the results depend on the processing

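Counts of the 10 members called moved as follows. For the combination against control 5 members became 1 with the epidermal score, 0 with the endothelial score and 3 without the muscle-rich libraries, 4 with the compared groups alone (Dusp9 lost, FDR 0.0633), and 3 to 5 without 1 library (3 without control 3, combination 2 or combination 3). For the combination against trametinib 1 became 0 with the epidermal score and 0 to 1 without 1 library (0 without trametinib 3 or combination 2). For the combination against cediranib 4 became 2 with the endothelial score, 3 (Dusp9 lost) with the epidermal score, without the muscle-rich libraries and with the compared groups alone (FDR 0.0647), and 3 to 4 without 1 library. In 1 of the fits without 1 library Dusp2, not called in the main fit, was called against cediranib (FDR 0.031). For the interaction 0 became 1 (Dusp6) with no filter and with DESeq2. Trametinib against control kept Dusp4, Dusp5 and Dusp6 in all 21 alternatives. In the combination against control the log2 fold changes of Dusp4, Dusp5 and Dusp6 stayed between -2.82 and -1.88 in the fits with a score or without the muscle-rich libraries. The replicate numbers did not pair the tumors, since 3 of 18 same-number pairs had r over 0.1 (median -0.0079) and 4 of 12 libraries correlated best with their own number. With the replicate number as a block Dusp9 lost both of its calls, at -1.90 (FDR 0.0533) against control and -1.87 (FDR 0.0668) against cediranib, which left 4 and 3 members, and no other member's call changed. The cause was not tested in any of these cases, and the endothelial score and the removal of muscle-rich libraries were chosen after the data were seen.

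Signs turned only for members without a call. Under trametinib the log2 fold change of Dusp10 was -0.031 with the endothelial score. Under cediranib Dusp10 had -0.0019 with size-factor scaling, -0.0074 with no filter, -0.0049 with DESeq2, -0.0041 with the block, -0.34 and -0.12 with the epidermal and endothelial scores and -0.10 without the muscle-rich libraries. Also under cediranib Dusp4 had -0.14 without the muscle-rich libraries, Dusp7 0.11, Dusp9 0.031 and Dusp8 0.086 with the endothelial score, and Dusp9 0.00026 with the epidermal score. In the combination Dusp1 had -0.12 against control without the muscle-rich libraries and 0.088 against trametinib with the epidermal score. Against trametinib Dusp7 had 0.036 and Dusp8 0.070 with library totals as the scale, 0.028 and 0.16 with the endothelial score, and Dusp8 0.58 with the epidermal score. The interaction of Dusp7 was 0.090, 0.0042 and 0.036 with library totals, with no filter and without the muscle-rich libraries. Without 1 library the cediranib values ran from -0.14 to 0.33 for Dusp4, -0.52 to 0.11 for Dusp5, -0.30 to 0.052 for Dusp7, -0.38 to 0.46 for Dusp9, -0.58 to 0.093 for Dusp8 and -0.13 to 0.25 for Dusp10. The combination against control ran from -0.13 to 0.37 for Dusp1 and -0.23 to 0.98 for Dusp8. Against trametinib the range was -0.54 to 0.11 for Dusp1, -3.17 to 0.97 for Dusp2, -0.25 to 0.068 for Dusp7, -0.62 to 0.054 for Dusp9 and -0.84 to 0.25 for Dusp8. The interaction ran from -0.027 to 0.63 for Dusp1, -2.02 to 2.12 for Dusp2, -0.17 to 0.20 for Dusp7, -0.80 to 0.12 for Dusp9 and -0.50 to 0.59 for Dusp8. In 1247 alternative values of single members 1134 kept direction and side of the threshold, 46 lost a call, 6 gained 1 and 61 changed sign.

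Over all genes, 310 were called for trametinib, 0 for cediranib, 466, 87 and 316 for the combination against control, trametinib and cediranib, and 0 for the interaction. With no filter the counts were 687, 324, 1129, 773, 637 and 261 in that order. DESeq2 called 6 for cediranib, 353 for the combination against trametinib and 28 for the interaction. The combination against trametinib had 274 with the compared groups alone, 57 with the block, 0 with the epidermal score and 7 without the muscle-rich libraries. The combination against control had 57 with the epidermal score, 14 with the endothelial score and 261 without the muscle-rich libraries. Trametinib had 181 without the muscle-rich libraries, and the combination against cediranib 149 with the endothelial score. Without 1 library the counts were 233 to 333 for trametinib, 0 to 7 for cediranib (7 without cediranib 2) and 0 to 1 for the interaction. They were 237 to 584 for the combination against control, where 237, 267, 306 and 261 were called without control 3, control 2, combination 1 and combination 2. Against cediranib they were 188 to 314, with 188 without cediranib 1. Against trametinib they were 0 to 211, with 16, 3 and 6 without trametinib 1, 2 and 3, 21, 0 and 10 without combination 1, 2 and 3, 53 without cediranib 1, 211 without cediranib 2 and 163 without control 1. With library totals as the scale the median log2 fold change of all genes was 0.13, 0.12 and 0.12 for the combination against control, trametinib and cediranib and 0.11 for the interaction, where it was 0.0016, -0.010, 0.0043 and -0.0021 with TMM. The compared groups alone gave no value for Dusp2 and Dusp9 against trametinib or Dusp2 against cediranib, which failed the filter there, and no interaction. Depth limits Dusp2, Dusp8 and Dusp9, whose counts are the lowest of the 10.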
